A study of Homo sapiens with 24 samples.

Results

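SMAD6, SMAD7, SMAD9, SKIL, BAMBI, PMEPA1, ID1, ID2, ID3 and ID4 are genes that TGF-β and BMP signaling are known to switch on, several of them to restrain the same pathways. These 10 genes were taken from the 36468 entries of the count table by their symbols. The libraries came from H9WAO9 cells, a wild-type human embryonic stem cell line, differentiated through vagal neural crest spheroids into sensory neuron cultures. Cultures were exposed for 5 days to Vehicle (bovine serum albumin in PBS), to TGF-β at 2 ng/ml, or to IL-4 at 10 ng/ml together with IL-13 at 3 ng/ml, and another group is labelled IL-6, for which the labels give neither dose nor time. Each of the 4 groups was sampled once in each of 6 differentiation batches, so that 24 libraries of polyA RNA entered the comparisons. All of them come from the same line, so that the spread between batches is a spread between differentiations and not between donors.

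TGF-β and activin receptors phosphorylate SMAD2 and SMAD3, whereas BMP receptors phosphorylate SMAD1, SMAD5 and SMAD9, and either set of proteins enters the nucleus with SMAD4. Among the genes that follow are brakes on the pathway itself: SMAD7 and SMAD6 are inhibitory SMADs that block receptors, SKIL encodes the nuclear corepressor SnoN, PMEPA1 encodes a membrane protein that sequesters SMAD2 and SMAD3, and BAMBI encodes a receptor-like protein without kinase activity. The ID genes are classical BMP targets, and their proteins lack a DNA-binding region and hold back basic helix-loop-helix factors, which in neural tissue drive neurogenesis. SMAD7, SKIL and PMEPA1 were therefore read as SMAD2/3 feedback genes, and SMAD6, SMAD9 and the 4 ID genes as targets of the BMP branch. BAMBI, which both branches are known to induce, was counted in neither.

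All 10 genes matched a single RefSeq gene of build GRCh38.p14. SMAD7 lies on chromosome 18 at 48919853 to 48950965, SKIL on chromosome 3 at 170357715 to 170396849, PMEPA1 on chromosome 20 at 57648396 to 57711472 and BAMBI on chromosome 10 at 28677521 to 28682932. SMAD6 lies on chromosome 15 at 66702236 to 66782849 and SMAD9 on chromosome 13 at 36844831 to 36920854. ID1 lies on chromosome 20 at 31605289 to 31606510, ID2 on chromosome 2 at 8682056 to 8684461, ID3 on chromosome 1 at 23557926 to 23559501 and ID4 on chromosome 6 at 19837370 to 19842197. Exons of PMEPA1 overlap the antisense gene NKILA, and exons of ID2 overlap ID2-AS1. Whether reads were counted by strand is not given in the sources used here, so that reads of these antisense partners cannot be told apart from those of PMEPA1 and ID2.

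The 250 bases before the first listed transcription start are shown for the 3 SMAD2/3 feedback genes, which are described first in the comparisons that follow, and for SMAD6, the only one of the 10 genes with the palindromic SMAD element in this window. They are RefSeq sequences of GRCh38.p14, written from 5′ to 3′ on the strand of the gene, and capitals mark the motif letters.
SKIL, chr3:170357465-170357714, plus strand: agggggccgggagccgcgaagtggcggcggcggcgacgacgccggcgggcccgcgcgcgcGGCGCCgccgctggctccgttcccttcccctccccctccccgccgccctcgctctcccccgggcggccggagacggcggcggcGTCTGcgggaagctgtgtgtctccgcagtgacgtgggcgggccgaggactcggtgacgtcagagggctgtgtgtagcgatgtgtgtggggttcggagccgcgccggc
PMEPA1, chr20:57711473-57711722, minus strand: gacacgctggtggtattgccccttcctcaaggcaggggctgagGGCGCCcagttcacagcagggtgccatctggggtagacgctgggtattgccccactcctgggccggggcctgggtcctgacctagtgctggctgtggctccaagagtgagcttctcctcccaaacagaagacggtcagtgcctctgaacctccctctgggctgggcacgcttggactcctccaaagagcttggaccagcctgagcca
SMAD7, chr18:48950966-48951215, minus strand: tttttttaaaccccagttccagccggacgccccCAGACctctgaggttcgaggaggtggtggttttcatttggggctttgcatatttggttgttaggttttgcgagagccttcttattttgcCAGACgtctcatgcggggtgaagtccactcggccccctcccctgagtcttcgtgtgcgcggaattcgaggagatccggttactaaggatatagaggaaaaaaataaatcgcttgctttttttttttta
SMAD6, chr15:66701986-66702235, plus strand: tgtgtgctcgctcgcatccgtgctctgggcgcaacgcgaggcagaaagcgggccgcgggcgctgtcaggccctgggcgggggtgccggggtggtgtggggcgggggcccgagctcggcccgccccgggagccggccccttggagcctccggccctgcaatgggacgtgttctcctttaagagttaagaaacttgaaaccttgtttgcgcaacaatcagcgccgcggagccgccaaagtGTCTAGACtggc
The letters searched, on both strands, were CAGAC, the core of the SMAD element, which occurred in 37.8% of the 27305 promoters in the RefSeq set, GGCGCC, a GC-rich SMAD site, in 16.1%, and the palindrome GTCTAGAC in 0.176%. None of the motifs contains another. SKIL held GGCGCC at -190 and the CAGAC core at -107 relative to the start, PMEPA1 held GGCGCC at -207, and SMAD7 held CAGAC at -217 and -128. SMAD6 held the palindrome at -12. At their first starts BAMBI also held CAGAC and GGCGCC, and ID3 and ID4 held CAGAC. ID1, ID2 and SMAD9 held none of these letters in the window. PMEPA1 and SMAD7 have further listed starts, whose windows are not shown. PMEPA1 held CAGAC at -115 before start 2 and at -71 before start 4, without GGCGCC, and none of the motifs before start 3. SMAD7 held CAGAC at -193 before start 2 and none of the motifs before start 3. A match in the letters is a description of the sequence and was not tied to any measurement here.

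Library totals ran from 33342682 to 39817784 counts. Neuronal markers were present in every library, with the summed level of 10 neuron genes between 1393 and 9415 CPM (read counts divided by the scaled size of the library, so that libraries can be compared), and the pluripotency genes POU5F1, NANOG and LIN28A together stayed at or below 3.27 CPM. The 9 mesenchymal genes, led by COL1A1 and COL1A2, summed to between 2701 and 13475 CPM, so that the cultures held other cells beside neurons, and in such whole cultures fewer cells of a type and less RNA per cell cannot be told apart. In 20 of 24 libraries the profile, centred by treatment, was closest to the other libraries of the same batch. Vehicle of batch 2 was closest to batch 4 and Vehicle of batch 4 to batch 2, and TGF-β and IL-4+IL-13 of batch 4 were closest to batch 3. The summed level of 6 cycling-cell genes was highest in batch 4 in Vehicle and in batch 2 in each of the treated groups. Whether the labels of the Vehicle libraries of batches 2 and 4 were exchanged was not tested, and they were kept as deposited. Within-batch differences against Vehicle in batches 2 and 4 rest on those Vehicle libraries, and several of the values that move without them are given both ways.

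In Vehicle the ID genes were the most abundant of the 10 once counts were divided by exon length. Median levels in Vehicle were 196 CPM per kb for ID1, 131 for ID3 with its 2 entries summed, 74.7 for ID4 and 65.5 for ID2. BAMBI followed at 51.0 CPM per kb. The feedback genes were lower, at 16.5 CPM per kb for PMEPA1, 10.4 for SKIL and 8.14 for SMAD7, with SMAD9 at 13.6 and SMAD6, the lowest, at 3.80. Neighbours in this order overlapped in their ranges over the 6 Vehicle libraries, with 1 gap, between BAMBI (lowest 47.3 CPM per kb) and PMEPA1 (highest 25.7 CPM per kb).

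**Figure D1:**
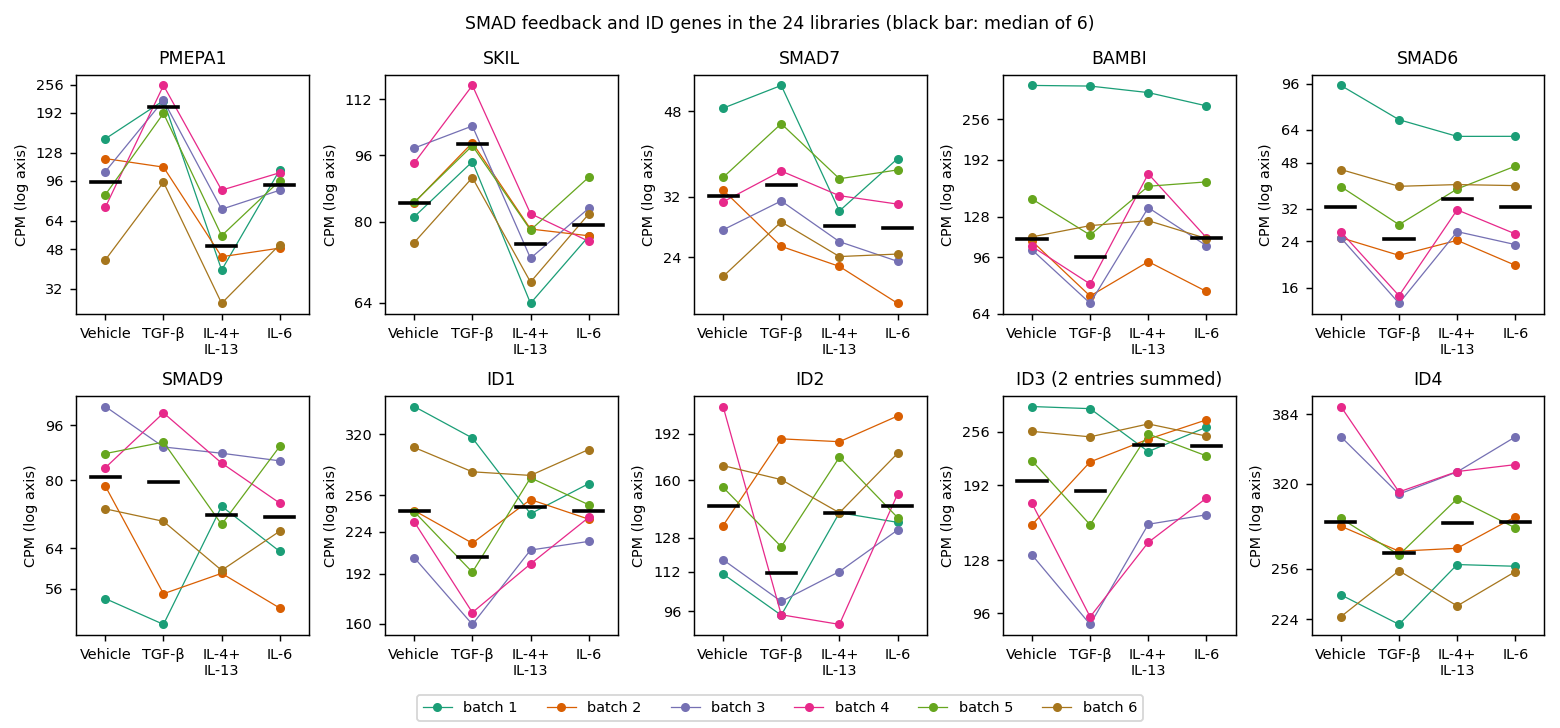
Normalised read counts (CPM, log axis) of the 10 genes in the 4 treatment groups, with lines joining the libraries of a batch and a black bar at the median of 6. PMEPA1 and SKIL are higher in each of the 6 TGF-β libraries than in any IL-4+IL-13 library, while BAMBI and SMAD6 are set apart mainly by batch 1.

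The levels of these genes depended on the differentiation batch to very different degrees. Batch accounted for 84.4% of the variance of log2 CPM in BAMBI, 84.0% in ID4 and 82.8% in SMAD6, and for 17.4% in SKIL. Treatment accounted for 66.8% of the variance in SKIL and 57.8% in PMEPA1, and for 15.8% in SMAD7 and 13.6% in ID1. BAMBI in Vehicle measured 326 CPM in batch 1 and between 101 and 145 CPM in the other 5 batches, and SMAD6 measured 94.5 CPM in batch 1 and between 24.8 and 45.1 CPM in the others. Batch 1 was also the batch with the lowest summed neuron genes in Vehicle (1563 CPM, against 3640 to 8979 CPM elsewhere) and the highest mesenchymal sum (10595 CPM, against 3270 to 8365 CPM). The part of these markers in the levels of BAMBI and SMAD6 was not tested.

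The first comparison asked what 5 days of TGF-β did to its own feedback genes. PMEPA1 measured 43.0, 94.5 and 147 CPM (lowest, median and highest) in Vehicle and 94.8, 204 and 254 CPM after TGF-β. The ranges overlapped, and PMEPA1 was higher with TGF-β in 5 of 6 batches, the exception being batch 2 with a difference of -0.13 in log2 CPM. In batches 2 and 4 PMEPA1 measured 121 and 73.4 CPM in Vehicle and 110 and 254 CPM after TGF-β. The fitted difference was a log2 fold change of 0.88 ± 0.21 (SE), or 1.84-fold, with an adjusted p of 0.0977 by the quasi-likelihood test of edgeR, which misses 0.05. Without the Vehicle library of batch 2 it was 1.08 with an adjusted p of 0.0196, and without all of batch 2 it was 1.10 with an adjusted p of 0.0255.

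SKIL measured 75.5, 84.3 and 98.0 CPM in Vehicle and 90.3, 99.0 and 116 CPM after TGF-β. It was higher in each of 6 batches, by 0.09 to 0.31 in log2 CPM, with a fitted log2 fold change of 0.22 ± 0.06 (SE) and an adjusted p of 0.177. The groups overlapped, and the difference was small but steady over the batches. SMAD7 measured 21.9, 32.1 and 48.7 CPM in Vehicle and 25.3, 33.8 and 54.3 CPM after TGF-β. It was higher in 5 of 6 batches, with a log2 fold change of 0.14 and a 95% interval from -0.08 to 0.36. Batch 2 again went the other way, with a SMAD7 difference of -0.38, and without the Vehicle library of batch 2 the log2 fold change of SMAD7 was 0.24 with an adjusted p of 0.310.

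The fitted differences of all BMP-branch genes were negative after TGF-β, and none of them passed. SMAD6 measured 24.8, 32.5 and 94.5 CPM in Vehicle and 13.9, 24.5 and 69.9 CPM after TGF-β. It was lower in each of 6 batches, by 0.21 to 0.83 in log2 CPM, with a log2 fold change of -0.48 ± 0.14 (SE) and an adjusted p of 0.217. ID1 measured 204, 242 and 354 CPM in Vehicle and 160, 204 and 316 CPM after TGF-β. It too was lower in each of 6 batches, with a log2 fold change of -0.26 ± 0.09 (SE) and an adjusted p of 0.389. For both genes the groups overlapped, since the batches lay further apart than the treatments.

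ID2, ID4 and SMAD9 gave smaller or less steady differences. ID2 measured 111, 145 and 213 CPM in Vehicle and 94.6, 112 and 188 CPM after TGF-β, giving a log2 fold change of -0.28 and a 95% interval from -0.63 to 0.06. The batch differences of ID2 ran from -1.17 in batch 4 to 0.49 in batch 2, the batches whose Vehicle libraries stood apart, and the log2 fold change of ID2 was -0.08 without batch 4 and -0.43 without batch 2. ID4, at 226, 289 and 392 CPM in Vehicle and 221, 267 and 313 CPM after TGF-β, had a log2 fold change of -0.12 with an interval from -0.25 to 0.01. SMAD9 measured 54.2, 81.0 and 102 CPM in Vehicle and 49.8, 79.6 and 99.9 CPM after TGF-β, and was higher in 2 batches and lower in 4. BAMBI measured 101, 109 and 326 CPM in Vehicle and 69.1, 95.8 and 324 CPM after TGF-β, was lower in 5 of 6 batches, and had a log2 fold change of -0.28 ± 0.13 (SE) with an adjusted p of 0.656.

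In all, 0 of the 10 genes passed an adjusted p of 0.05 in TGF-β against Vehicle, where 0.347% of the 29377 genes tested passed. That share rests on 102 genes, and the count was 1 without batch 3 and 1 without batch 5. Unadjusted p-values were under 0.05 for 5 of the 10, namely SKIL, PMEPA1, BAMBI, SMAD6 and ID1, against 7.29% of all genes. DESeq2 passed 2 of the 10, PMEPA1 and SKIL, and 1.72% of all genes. The median log2 fold change was -0.19 over the 10 genes and -0.01 over all genes.

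**Figure D2:**
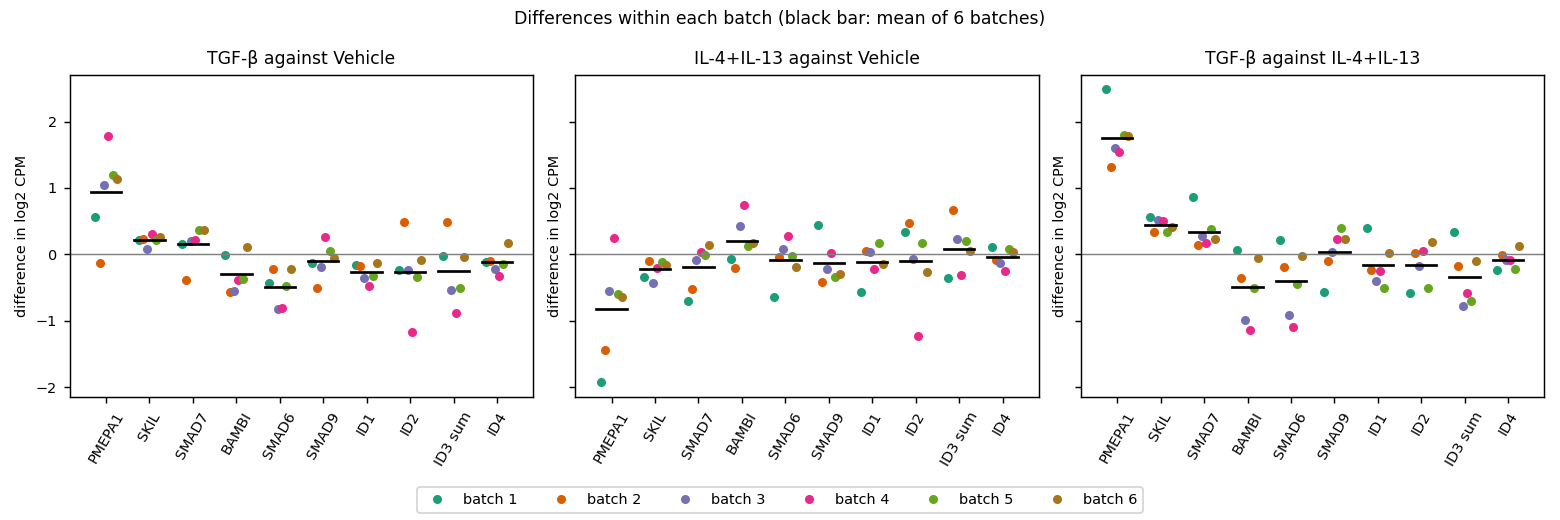
Differences in log2 CPM within each of the 6 batches (colored points) with their mean (black bar) for TGF-β against Vehicle, IL-4+IL-13 against Vehicle and TGF-β against IL-4+IL-13. SKIL lies above 0 in each batch in the first and last panels and below 0 in each batch in the middle panel, and PMEPA1 in batch 2 is -0.13 against Vehicle but 1.31 against IL-4+IL-13.

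Type 2 cytokines, which signal through STAT6 and not through SMADs, were compared with the same Vehicle libraries, so that this comparison and the one before are not independent. PMEPA1 measured 27.6, 49.7 and 87.4 CPM after IL-4+IL-13. It was lower than Vehicle in 5 of 6 batches, down to a difference of -1.93 in log2 CPM in batch 1, and higher by 0.25 in batch 4. The fitted log2 fold change was -0.85 ± 0.21 (SE) with an adjusted p of 0.0967, and without batch 4 it was -1.04 with an adjusted p of 0.0340. Without the Vehicle library of batch 2 it was -0.63 with an adjusted p of 0.245, and without batch 1 it was -0.65 with an adjusted p of 0.359. Without the Vehicle libraries of batches 2 and 4 it was -0.78 with an adjusted p of 0.0650. Without all of batches 2 and 4 it was -0.92 with an adjusted p of 0.0570, and both of these alternatives were chosen after seeing the data. In batch 1 the mesenchymal sum, led by COL1A1 and COL1A2, was 10595 CPM in Vehicle and 4846 CPM after IL-4+IL-13. Its part in the difference of PMEPA1 was not tested. SKIL measured 63.9, 75.3 and 81.8 CPM and was lower in each of 6 batches, with a log2 fold change of -0.23 ± 0.06 (SE) and an adjusted p of 0.142. SMAD7 measured 22.998, 27.9 and 34.9 CPM and was lower in 4 of 6 batches, with a log2 fold change of -0.20 and an interval from -0.42 to 0.02, and without the Vehicle library of batch 2 the value of SMAD7 was -0.09.

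Genes of the BMP branch lay near Vehicle after IL-4+IL-13. ID1 measured 199, 246 and 275 CPM, ID2 91.3, 141 and 186 CPM, and ID4 232, 289 and 330 CPM, and their log2 fold changes were -0.10, -0.11 and -0.04. SMAD6 measured 24.2, 34.9 and 60.4 CPM with a log2 fold change of -0.08 and an interval from -0.37 to 0.21. SMAD9 measured 58.9, 71.3 and 87.5 CPM with a log2 fold change of -0.13, and BAMBI measured 92.9, 148 and 310 CPM with a log2 fold change of 0.21. Each of the 6 intervals contained 0, which does not show that the levels were equal.

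Again 0 of the 10 genes passed in IL-4+IL-13 against Vehicle, where 0.633% of all genes tested did. Only PMEPA1 and SKIL had an unadjusted p under 0.05, 2 of the 10 against 9.1% of all genes. They were also the 2 that DESeq2 passed, with 1.95% of all genes. The median log2 fold change was -0.12 over the 10 genes and -0.01 over all genes.

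In the direct comparison of TGF-β with IL-4+IL-13, 3 of the 10 genes passed, where 2.98% of all genes tested did. The Vehicle libraries enter it only through the batch terms and the spread, and without the Vehicle library of batch 2 the counts were 4 of the 10 and 1443 genes in all, against 874 with it. PMEPA1 was 3.31-fold higher in the TGF-β libraries, a log2 fold change of 1.73 ± 0.22 (SE) and an adjusted p of 0.000122 in edgeR. The ranges of PMEPA1, 94.8 to 254 CPM and 27.6 to 87.4 CPM, did not overlap, and the difference was between 1.31 and 2.49 in log2 CPM in each of 6 batches. SKIL was 1.36-fold higher, with a log2 fold change of 0.45 ± 0.06 (SE) and an adjusted p of 0.000233. Its ranges, 90.3 to 116 CPM and 63.9 to 81.8 CPM, did not overlap either. SKIL differed by 0.33 to 0.56 in log2 CPM in each of 6 batches, a small change with little scatter.

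BAMBI passed in the other direction, with a log2 fold change of -0.49 ± 0.13 (SE) and an adjusted p of 0.0471. It was lower with TGF-β in 5 of 6 batches, from -1.13 in batch 4 and -0.98 in batch 3 to 0.07 in batch 1, where its level was highest. The call did not hold without batch 3 (adjusted p 0.317), without batch 4 (0.237) or without batch 5 (0.164), and BAMBI was -0.35 without batch 4. SMAD7 was higher in each of 6 batches, the fit giving 0.34 ± 0.10 (SE) in log2, and its adjusted p was 0.102 by edgeR and 0.0462 by DESeq2. DESeq2 passed 4 of the 10, these 4 genes, and 5.35% of all genes. Of the 10 genes 5 had an unadjusted p under 0.05 in edgeR, against 12.2% of all genes, and the fifth was SMAD6 with a log2 fold change of -0.39 and an adjusted p of 0.178. ID1, ID2 and ID4 had log2 fold changes of -0.16, -0.18 and -0.08 in this comparison, and SMAD9 of 0.04.

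**Figure D3:**
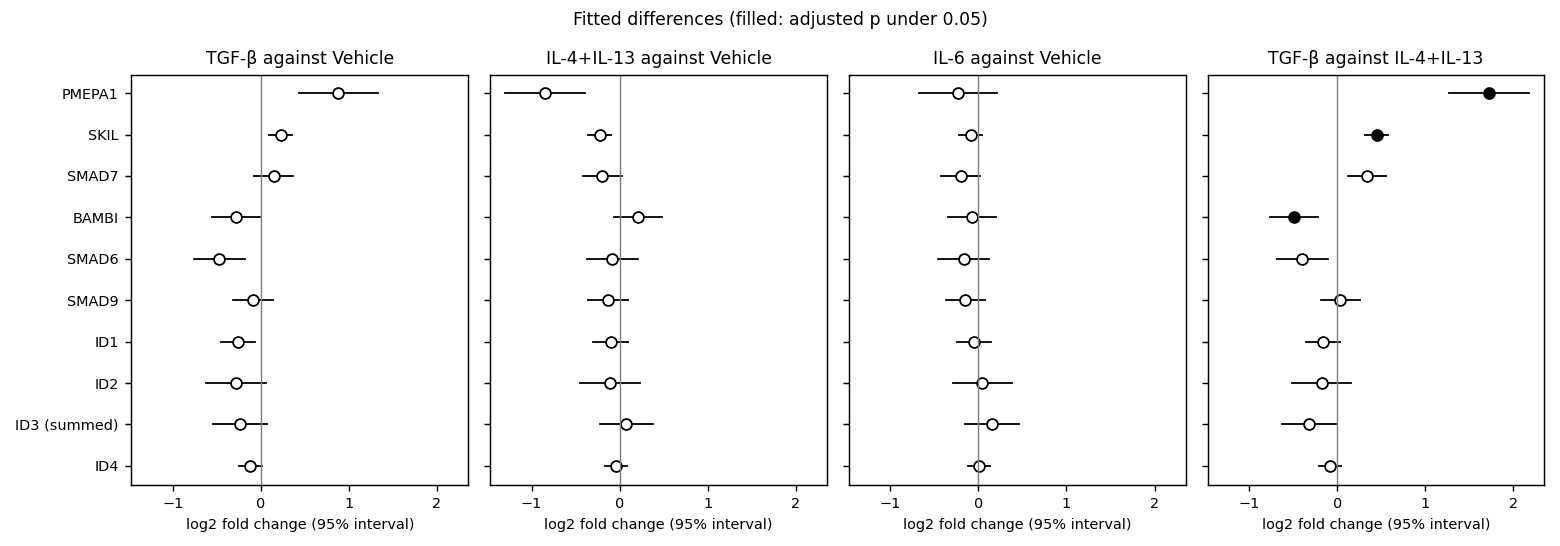
Fitted log2 fold changes with 95% intervals for 4 comparisons, filled where the adjusted p was under 0.05, with ID3 as the sum of its 2 entries. Only PMEPA1 (1.73), SKIL (0.45) and BAMBI (-0.49) are filled, all of them in TGF-β against IL-4+IL-13.

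Of the cell type markers reported, 1 mesenchymal and 1 epithelial gene passed in the same direct comparison, where 2.98% of all genes did. The mesenchymal genes summed to 4218, 6695 and 13475 CPM with TGF-β and to 2701, 4668 and 6434 CPM with IL-4+IL-13, and 1 of the 9 passed, COL1A1, with a log2 fold change of 1.31. COL1A1 and COL1A2 were the highest of the 9, at medians of 2480 and 2554 CPM over the 24 libraries. The median log2 fold change of the 9 was 0.07. At an unadjusted p under 0.05 in edgeR 1 of them was higher and 1 lower, against 12.2% of all genes. Schwann or satellite glia genes are reported here only in part and without a count of calls. Of these, NGFR ran from 6.14 to 105 CPM and S100B from 12.2 to 73.0 CPM over the 24 libraries, while SOX10 stayed at or below 0.671 CPM and CDH19 was at 0 in 11 libraries. Of 4 epithelial genes 1 passed, CDH1, with a log2 fold change of 1.27 at a mean level of 4.51 CPM. None of the 10 neuron genes, 6 cycling genes, 6 smooth muscle genes and 4 endothelial genes passed. The part of these cells in the differences of PMEPA1, SKIL and BAMBI was not tested.

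IL-6 signals through STAT3. In IL-6 against Vehicle 0 of the 10 genes passed, as did 0% of all genes by edgeR, and 0 of the 10 had an unadjusted p under 0.05, against 4.77% of all genes. DESeq2 passed 0 of the 10 and 132 genes in all, 0.449%. PMEPA1 measured 48.5, 91.8 and 107 CPM with IL-6, with a log2 fold change of -0.23 and an interval from -0.68 to 0.21, and of -0.03 without the Vehicle library of batch 2. SKIL measured 75.8, 79.3 and 90.4 CPM and SMAD7 19.3, 27.6 and 38.3 CPM, and their log2 fold changes were -0.09 and -0.20. ID1 measured 216, 242 and 303 CPM, ID2 132, 145 and 206 CPM, and ID4 254, 289 and 362 CPM. Their log2 fold changes against Vehicle were -0.05 for ID1, 0.05 for ID2 and 0.01 for ID4. SMAD6, SMAD9 and BAMBI had log2 fold changes of -0.17, -0.15 and -0.07, and each interval contained 0.

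Against IL-6 the TGF-β libraries gave the most even differences of PMEPA1. PMEPA1 was higher with TGF-β in each of 6 batches, by 0.92 to 1.32 in log2 CPM, with a log2 fold change of 1.11 ± 0.21 (SE) and an adjusted p of 0.0540. SKIL was higher in each of 6 batches, with a log2 fold change of 0.31 and an adjusted p of 0.0546. SMAD7 was higher in each of 6 batches, by 0.22 to 0.50, with a log2 fold change of 0.34 and an adjusted p of 0.288. ID2 was lower in each of 6 batches, with a log2 fold change of -0.33 and an adjusted p of 0.682. SMAD6, ID1 and ID4 had log2 fold changes of -0.31, -0.21 and -0.13, BAMBI of -0.21 and SMAD9 of 0.05. ID3 with its 2 entries summed was at -0.40, with an adjusted p of 0.460. By edgeR 0 of the 10 passed, where 0.0783% of all genes did. Unadjusted p-values were under 0.05 for 6 of the 10, namely PMEPA1, SKIL, SMAD7, SMAD6, ID1 and ID4, against 7.5%. DESeq2 passed 2 of the 10, PMEPA1 and SKIL, against 1.7%. Without the Vehicle library of batch 2, which enters this comparison only through the batch terms and the spread, both genes passed in edgeR, PMEPA1 with an adjusted p of 0.0164 and SKIL with 0.0284.

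In IL-4+IL-13 against IL-6 PMEPA1 was lower in each of 6 batches, with a log2 fold change of -0.62 ± 0.21 (SE) and an adjusted p of 0.558. SKIL had a log2 fold change of -0.14 and BAMBI of 0.28. These were the 3 genes with an unadjusted p under 0.05, against 4.57% of all genes, and 0 of the 10 passed by edgeR or by DESeq2, where these passed 0.456% and 1.35% of all genes. In each batch PMEPA1 was thus highest with TGF-β, lower with IL-6 and lowest with the type 2 cytokines among these groups, and Vehicle took different places in that order between batches.

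ID3 has to be read from 2 entries of the count table that carry its symbol. The first, which the rule selects, held between 0 and 4440 counts and was under 10 counts in 4 libraries, whereas the second entry held most or nearly all reads where the first was low, and together they held between 3115 and 10561 counts. The first entry took from 0% to 48.0% of the ID3 counts of a library, with a median of 29.5%. Scatter around the fit of batch and treatment was 2.62 in log2 CPM for the first entry, 0.40 for the second and 0.22 for their sum. On the first entry alone ID3 had log2 fold changes of -0.66 ± 1.27 (SE) for TGF-β, -0.99 ± 1.18 (SE) for IL-4+IL-13 and 0.73 ± 1.13 (SE) for IL-6, each against Vehicle. These are too imprecise to give a direction, and how reads were divided between the entries is not given in the sources used here.

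**Figure D4:**
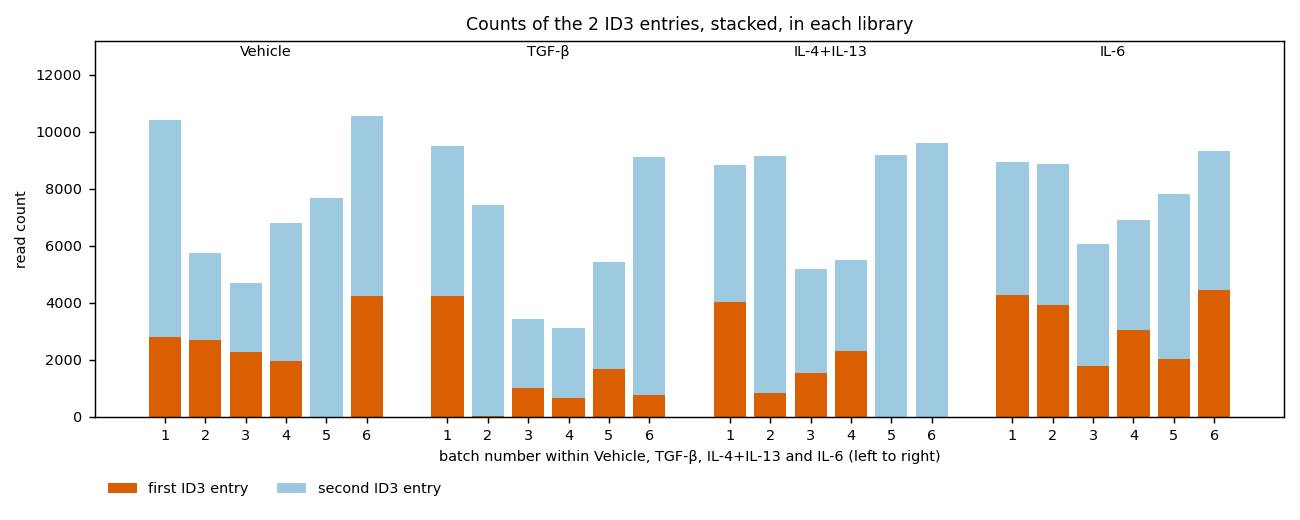
Read counts of the 2 entries for ID3, stacked, in the 24 libraries, ordered by treatment and batch. The first entry is close to 0 in Vehicle batch 5, TGF-β batch 2 and IL-4+IL-13 batches 5 and 6, where the second entry holds nearly all of the ID3 counts.

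Summed over both entries, ID3 measured 132, 196 and 294 CPM in Vehicle, 90.4, 186 and 290 CPM after TGF-β, 141, 238 and 267 CPM after IL-4+IL-13 and 164, 238 and 273 CPM with IL-6. It was lower after TGF-β than in Vehicle in 5 of 6 batches, with a log2 fold change of -0.24 and an interval from -0.55 to 0.07. The summed ID3 differed from Vehicle by 0.08 after IL-4+IL-13 and by 0.16 with IL-6. In TGF-β against IL-4+IL-13 it had a log2 fold change of -0.32, with an interval from -0.62 to -0.01 and an adjusted p of 0.381.

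The SMAD2/3 feedback genes and the BMP-branch genes were also set against each other within batches. After TGF-β the mean difference in log2 CPM against Vehicle was 0.44 ± 0.30 (SD over 6 batches) for SMAD7, SKIL and PMEPA1. It was -0.25 ± 0.21 for SMAD6, SMAD9 and the ID genes with ID3 summed, which was below 0 in each of 6 batches. The mean of the feedback genes came mostly from PMEPA1, at 0.93, with SKIL at 0.22 and SMAD7 at 0.15. The feedback genes exceeded the BMP-branch genes by 0.68 ± 0.47 (SD), in 5 of 6 batches, with a range from -0.09 in the lowest batch to 1.34 in the highest. After IL-4+IL-13 the means were -0.41 ± 0.37 for the feedback genes and -0.06 ± 0.14 for the BMP branch, with a difference of -0.35 ± 0.45 (SD), and with IL-6 the difference was -0.14 ± 0.39 (SD). Both of these were smaller than their spread between batches. By gene, the feedback means after IL-4+IL-13 were -0.82 for PMEPA1, -0.23 for SKIL and -0.19 for SMAD7. When ID3 was taken from its first entry only, the 3 differences were 0.74 ± 0.77, 0.01 ± 0.87 and -0.41 ± 0.60 (SD). The genes were grouped by known function and the treatments share their Vehicle libraries, so that these means are given as a description without a test.

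Other genes known to respond to SMAD2/3 were read in the same comparisons. Like the other lists, this one was chosen with earlier results of these data known, so that its counts are a description. Of the 15 such genes reported here 6 were higher in the TGF-β libraries and 0 in those of the type 2 cytokines, where 2.98% of all genes passed in either direction, with a median log2 fold change of 0.42 against -0.0048 over all genes. TGFBI, a secreted matrix protein, had a log2 fold change of 2.34 ± 0.28 (SE) and an adjusted p of 9.23e-05. LTBP2, a matrix protein of the latent TGF-β binding family, had 1.59 ± 0.25 (SE) and an adjusted p of 0.00111, and COL1A1, a collagen chain also counted among the mesenchymal genes, had 1.31 ± 0.26 (SE) and an adjusted p of 0.00676. Against Vehicle, 0 of the 15 passed with TGF-β by edgeR or by DESeq2 (0.347% and 1.72% of all genes), with 4 at an unadjusted p under 0.05 (7.29% of all genes). With IL-4+IL-13, 2 passed as lower by edgeR and 4 by DESeq2 (0.633% and 1.95% of all genes in either direction). The 2 were TGFBI at -1.54 (adjusted p 0.00975) and LTBP2 at -1.12 (0.0497). TGFBI was also lower with IL-4+IL-13 than with IL-6, at a log2 fold change of -1.28.

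**Figure D5:**
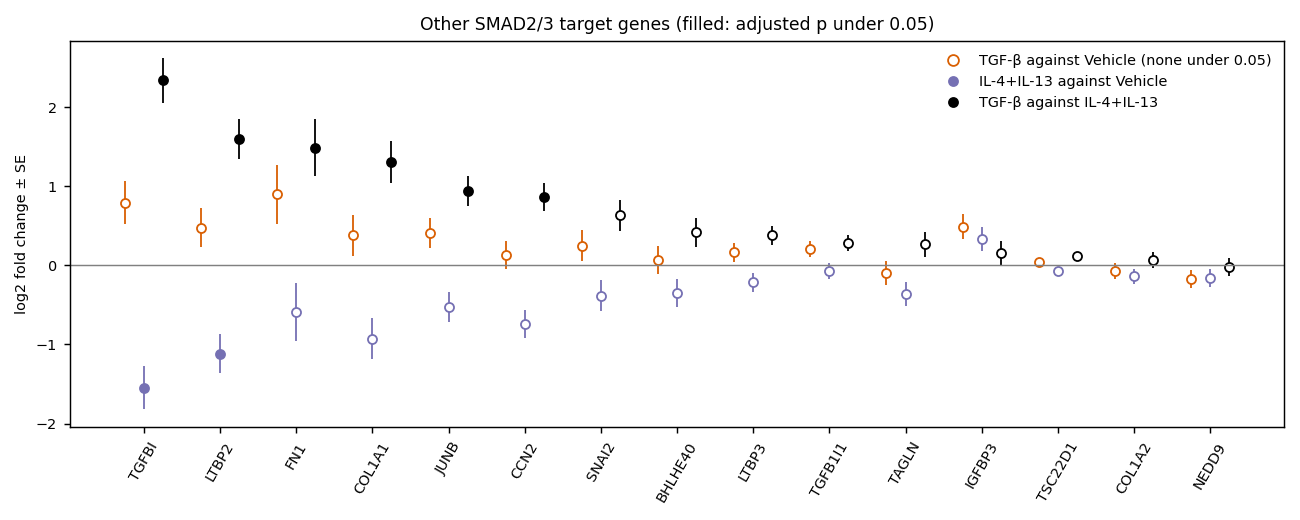
Log2 fold changes ± SE of 15 other SMAD2/3 target genes, filled where the adjusted p was under 0.05. Values for TGF-β against Vehicle (orange) are all open, IL-4+IL-13 against Vehicle (violet) is filled for TGFBI and LTBP2, and TGF-β against IL-4+IL-13 (black) is filled for 6 genes.

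BMP target genes outside the 10 were read first in TGF-β against Vehicle. There 0 of 14 passed by edgeR and 1 as lower by DESeq2 (0.347% and 1.72% of all genes). At an unadjusted p under 0.05 in edgeR 1 was higher and 4 lower, against 7.29% of all genes. Their median log2 fold change was -0.02, against -0.27 for the 6 BMP-branch genes with ID3 from its first entry. Lists of the wider BMP pathway were then read in TGF-β against IL-4+IL-13, against the same 2.98% of all genes. Of the 14 other BMP target genes 1 was higher and 1 lower in the TGF-β libraries by edgeR. DLX2, a homeobox gene at a mean of only 0.482 CPM, had a log2 fold change of 1.52. MSX1, another homeobox gene, had -0.78 ± 0.20 (SE) and an adjusted p of 0.0368. At an unadjusted p under 0.05 in edgeR 4 of the 14 were higher and 3 lower, against 12.2% of all genes. DESeq2 passed 2 as higher and 3 as lower, against 5.35%. Among 15 BMP and GDF ligands BMP6 was higher with TGF-β by a log2 fold change of 0.84 ± 0.15 (SE, adjusted p 0.00276), and BMP3 by 2.04 at a mean of 1.27 CPM. At an unadjusted p under 0.05, 3 of the 15 were higher and 2 lower, and DESeq2 passed 2 as higher, against the same shares. Of 12 BMP receptors and co-receptors BMPR2, the type II receptor, was higher by 0.32 ± 0.08 (SE, adjusted p 0.0480). At an unadjusted p under 0.05, 2 of the 12 were higher and 0 lower, and DESeq2 passed 1 as higher, against the same shares. The 14 signal SMADs and co-regulators, the 13 extracellular antagonists and the 3 E proteins that ID proteins bind gave 0 calls in this comparison by edgeR. Unadjusted p-values under 0.05 were found for 3 and 4 genes of the first 2 lists and for 0 E proteins, against 12.2% of all genes, and DESeq2 passed 1 and 2 genes and 0, against 5.35%. Of 10 basic helix-loop-helix genes of the neural lineage, a family that ID proteins act on, 0 passed in this comparison. In IL-4+IL-13 against Vehicle 1 was higher, where 0.633% of all genes passed: NEUROG1, a proneural factor at a mean of 0.584 CPM, with a log2 fold change of 2.01 and an adjusted p of 0.0278. The median log2 fold change of the 10 against Vehicle was 0.34 with TGF-β, 0.39 with IL-4+IL-13 and 0.41 with IL-6. Over all genes it was -0.01 in each. These 3 comparisons share the same 6 Vehicle libraries, those of batches 2 and 4 among them. The 6 cycling-cell genes had medians of 0.54, 0.93 and 0.79 in the same comparisons, and the cause was not tested. In IL-4+IL-13 against IL-6 the median of the 10 helix-loop-helix genes was 0.0043.

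Across the 24 libraries, with each batch centred, SMAD7, SKIL and PMEPA1 varied together, at Pearson's r of 0.86 for SKIL with PMEPA1, 0.85 for SMAD7 with PMEPA1 and 0.67 for SMAD7 with SKIL. SMAD6 went with BAMBI (0.83), ID1 (0.79) and the summed ID3 (0.63), and ID2 with ID4 (0.73), whereas PMEPA1 ran against the summed ID3 (-0.58) and ID2 (-0.56). SMAD9 had its strongest coefficients with the summed ID3 (-0.68) and ID1 (-0.47), and was at 0.15 with PMEPA1. The 24 points share batches, treatments and library composition, and these coefficients describe the libraries only.

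Among 11764 genes with a mean of at least 5 CPM, the closest in pattern to PMEPA1 were RUNX1 (r 0.977, Spearman's rho 0.977), PLXND1 (r 0.962) and COL5A1 (r 0.961). RUNX1, a transcription factor, kept an r of 0.980 when the 2 libraries farthest from the median were left out. SKIL was closest to FOXP1 (r 0.901), SMAD7 to APCDD1L (r 0.933), BAMBI to CP (r 0.957), SMAD6 to RILPL2 (r 0.950) and SMAD9 to R3HDM1 (r 0.937). Of the ID genes, ID1 was closest to RAB42 (r 0.876), ID2 to TSHZ2 (r 0.935), ID4 to ITGA6 (r 0.826) and the summed ID3 to IFITM3 (r 0.954). The first entry of ID3 found no gene above an r of 0.705, that of MSANTD3-TMEFF1.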

How the data were processed

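PolyA RNA of whole cultures was sequenced on an Illumina NovaSeq instrument. Per the labels, the authors trimmed adapters with Trimmomatic 0.30 and used GRCh38.p14, which the labels call a mouse reference although it is a human build. The aligner, the counting program and the use of strand are not given in the sources used here. As deposited, the table holds raw read counts, 1 row per gene entry (36468 entries, 13161 of them unnamed new genes, 4886 sharing a symbol with another entry). The labels name DESeq2 for the analysis.

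Groups and batches were taken from the labels. The 10 genes and all gene lists were chosen with earlier results of these data known. Entries with a total of at least 10 counts (29377, all 10 genes among them) were fitted with edgeR 4.0.16 (TMM scaling, robust quasi-likelihood F test) in R 4.3.3, with batch and treatment as terms and all 24 libraries in 1 fit. P-values were adjusted by the Benjamini-Hochberg method over all genes tested, and a gene passed at an adjusted p under 0.05. SE is the log2 fold change divided by the root of F. CPM is edgeR's cpm, the count relative to the TMM-scaled library size, and log2 CPM a prior count of 2. DESeq2 1.42.0, other scaling and filters, a fit without batch and the leaving out of each batch were alternatives. Batches mark separate differentiations of the same line. With batch as a term, p-values rest on how much the treatment differences vary between batches, not on the spread of levels between them.

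Batch labels paired the libraries: the median correlation of profiles after centring by treatment was 0.649 within a batch (36 pairs, lowest -0.05) and -0.17 between batches. Exon lengths are unions of GENCODE exons on GRCh38, which may differ from the annotation used for counting. Promoter motifs were searched in 250 bases before the start. Genes of 2 lists that are not reported here were left out of the counts. All 10 genes are named. From each of the 8 pathway lists, up to 3 genes with the lowest p among those that passed are named, and for each of the 10 genes the genes nearest in pattern, up to 3. The fit was tested on simulated data. Counting intervals are not given, since each value rests on replicate libraries.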

Additional observations from a re-analysis of the deposited data

Results flagged for a closer look

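Of 96 sets of 6 values tested (each gene, with ID3 read in 3 ways, in 4 groups and 4 comparisons), 9 had a library or batch at one end whose gap to its neighbour exceeded 0.625 of the whole range. Chance alone flags about 1 set in 20. Of the 9, 4 fell in batch 1 and 4 concern a single entry of ID3.

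BAMBI in batch 1 stood above the other batches, at 8.35 in log2 CPM in Vehicle (next 7.18) and 8.34 after TGF-β (next 6.91). SMAD7 in batch 2 was the only batch below Vehicle after TGF-β, at -0.38 in log2 CPM (next 0.16). SMAD7 in batch 1 exceeded the other batches in TGF-β against IL-4+IL-13, at 0.86 (next 0.38). ID1 in batch 1 was lower than the others in IL-6 against Vehicle, at -0.41 (next -0.05).

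The first entry of ID3 was at -3.15 in log2 CPM in Vehicle of batch 5 and at -1.65 in TGF-β of batch 2. Its within-batch differences were -9.86 in batch 6 for IL-4+IL-13 against Vehicle and 9.01 in batch 5 for IL-6 against Vehicle.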

How the results depend on the processing

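Counts of the 10 genes that passed stayed within 1.5 times those given, except as follows. DESeq2 passed 2 in TGF-β against Vehicle, 2 in IL-4+IL-13 against Vehicle and 2 in TGF-β against IL-6. The filterByExpr filter passed 2 in TGF-β against IL-6. Without the Vehicle libraries of batches 2 and 4, an alternative chosen after seeing the data, 1 passed in TGF-β against Vehicle (PMEPA1, 0.94, adjusted p 0.0401) and 2 in TGF-β against IL-6. Leaving out 1 batch, or the Vehicle library of batch 2, gave 0 to 1 in TGF-β against Vehicle, 0 to 1 in IL-4+IL-13 against Vehicle, 2 to 4 in TGF-β against IL-4+IL-13 and 0 to 2 in TGF-β against IL-6. PMEPA1 and SKIL passed in TGF-β against IL-4+IL-13 under all alternatives run. In the fit without the replicate block (batch) 2 of the 10 passed there, PMEPA1 (adjusted p 0.0184) and SKIL (0.0214), BAMBI did not (-0.36), and the other 5 comparisons gave 0. BAMBI also missed 0.05 with RLE scaling (adjusted p 0.0536), without a filter (0.0508), without the IL-6 libraries (0.118) and without batches 2 and 4 (0.250).

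Over all genes, the calls in TGF-β against Vehicle (102) ran from 1 to 133 without 1 batch and were 12 without the IL-6 libraries and 0 without the block, and those in TGF-β against IL-4+IL-13 (874) ran from 390 to 1443 without 1 batch or the Vehicle library of batch 2 and were 524 and 51.

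Directions that changed belonged to values whose 95% interval in the main fit contained 0, ID3 among them, and the cause was not tested. Not all of these values were near 0, since PMEPA1 in IL-6 against Vehicle was -0.23 in the main fit. Without batches 2 and 4, ID3 was 0.0892 in TGF-β against Vehicle, ID2 and ID4 were 0.0554 and 0.0237 in IL-4+IL-13 against Vehicle, and BAMBI was 0.0028 in IL-6 against Vehicle. Without the Vehicle libraries of batches 2 and 4, ID4 was 0.0176 in IL-4+IL-13 against Vehicle. With the entries of each symbol summed, ID3 was 0.0836 in IL-4+IL-13 against Vehicle and -0.32 in TGF-β against IL-4+IL-13. Without the replicate block, ID4 was -0.0071 in IL-6 against Vehicle. Leaving out 1 batch or 1 library gave ranges, in IL-4+IL-13 against Vehicle, of -0.16 to 0.0323 for SMAD6, -0.22 to 0.13 for ID2 (the lowest without the Vehicle library of batch 2) and -0.0682 to 0.0065 for ID4. In IL-6 against Vehicle they were -0.34 to 0.0057 for PMEPA1, -0.12 to 0.0181 for BAMBI, -0.0718 to 0.0185 for ID1, -0.0681 to 0.19 for ID2 (the lowest likewise) and -0.0247 to 0.0555 for ID4. In TGF-β against IL-4+IL-13 they were -0.0180 to 0.15 for SMAD9 and -0.54 to 0.88 for ID3. The mean difference between feedback and BMP-branch genes, with ID3 from its first entry, ranged from 0.60 to 1.01 for TGF-β, from -0.30 to 0.22 for IL-4+IL-13 and from -0.52 to -0.21 for IL-6. The lowest count of a member in any library was 493 (SMAD6), apart from the first ID3 entry, which fell to 0.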
